A study of Mus musculus with 6 samples.

Results

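The Zfp genes of the mouse encode zinc finger proteins and were examined for regions of captured methylated DNA in chondrocytes, the cells of cartilage. A gene was a member when it was a protein-coding RefSeq gene whose symbol is Zfp followed by a digit and when it lay on sequence that the deposited list of methylated regions covers. This gave 244 of the 397 Zfp genes in the gene table and of 15771 protein-coding genes on covered sequence. A gene was called clustered when the body of another Zfp gene lay within 100 kb (121 genes) and single otherwise (123 genes). The 121 clustered genes formed 29 groups, of which 14 were pairs and the largest held 23 genes.

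Methylated DNA of 6 primary cultures had been enriched by precipitation with MBD2, a protein that binds methylated CpGs, and sequenced (MBD-seq). All cultures came from knee articular cartilage of mice at postnatal day 3 to 5. Per the labels, 3 control cultures had the genotype Dnmt1 flox, and 3 conditional knockout (cKO) cultures had the genotype Prx1-Cre;Dnmt1 flox/flox. Prx1-Cre is active in limb mesenchyme, and the Dnmt1 enzyme passes CpG methylation on to newly replicated DNA. The list holds 84111 peaks called on 3 merged datasets, and its peak names do not say which cultures these were. It has no value for any culture, so no control against cKO comparison, replicate spread or test over animals can be given, and the depth of each culture is unknown. The name of the list speaks of methylation mediated by Dnmt1, but which sets served as signal and as background is not given in the sources used here. A peak is therefore described only as a stretch where captured DNA exceeded the caller's background, and no loss or gain in either genotype is read from it. Chondrocyte markers are measured in RNA and could not be checked in these data.

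Most Zfp genes code for arrays of zinc fingers that bind DNA. Many also carry a KRAB domain, which recruits the co-repressor Trim28 and, through it, enzymes that set heterochromatin marks on retroelements and imprinted regions. KRAB zinc finger genes arose largely by tandem duplication, so many lie side by side and resemble each other closely, and their finger arrays sit in the last exon. The gene table gives no exons, so peaks were placed along the gene between its start and its far end, the end of the last exon. The strand, and with it the direction of the gene, was known for 199 of the 244 genes, from the RefSeq promoter table of GRCm38.p6.

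The promoter windows of 5 genes carry the main points of what follows and are printed 5′ to 3′, with each CpG in capitals. Each window runs from 250 bases before to 50 bases after a transcript start. Those of Zfp982 (chr4:147492167-147492466, plus strand) and Zfp979 (chr4:147642459-147642758, minus strand) are shown because among the 243 windows of the Zfp genes they were the 2 that a peak overlapped. Those of Zfp966 (chr2:175931051-175931350, minus strand) and Zfp967 (chr2:176520754-176521053, plus strand) are shown as a pair of copies with no peak. That of Zfp57 (chr17:37003416-37003715, plus strand) is shown as a window without a copy among the promoter windows compared here. The Zfp57 protein binds methylated imprinting control regions and preserves their methylation, and the peak of its gene lay near the other end.
Zfp982: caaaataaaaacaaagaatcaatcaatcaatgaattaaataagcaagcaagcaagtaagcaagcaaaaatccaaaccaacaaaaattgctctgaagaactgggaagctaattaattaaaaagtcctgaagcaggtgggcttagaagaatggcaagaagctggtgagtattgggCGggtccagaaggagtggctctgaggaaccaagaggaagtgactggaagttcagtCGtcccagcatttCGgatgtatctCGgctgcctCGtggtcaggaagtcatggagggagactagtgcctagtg
Zfp979: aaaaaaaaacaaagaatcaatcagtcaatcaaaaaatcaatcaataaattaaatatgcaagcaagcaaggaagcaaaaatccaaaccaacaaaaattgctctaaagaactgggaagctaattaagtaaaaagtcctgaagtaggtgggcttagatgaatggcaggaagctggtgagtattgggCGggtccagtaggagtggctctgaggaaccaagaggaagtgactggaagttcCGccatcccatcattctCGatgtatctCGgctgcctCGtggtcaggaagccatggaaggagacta
Zfp966: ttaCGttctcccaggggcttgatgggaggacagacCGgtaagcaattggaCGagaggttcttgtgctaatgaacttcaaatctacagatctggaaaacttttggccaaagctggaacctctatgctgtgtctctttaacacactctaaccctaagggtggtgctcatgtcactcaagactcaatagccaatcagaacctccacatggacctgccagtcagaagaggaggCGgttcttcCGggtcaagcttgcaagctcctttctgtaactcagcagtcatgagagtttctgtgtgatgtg
Zfp967: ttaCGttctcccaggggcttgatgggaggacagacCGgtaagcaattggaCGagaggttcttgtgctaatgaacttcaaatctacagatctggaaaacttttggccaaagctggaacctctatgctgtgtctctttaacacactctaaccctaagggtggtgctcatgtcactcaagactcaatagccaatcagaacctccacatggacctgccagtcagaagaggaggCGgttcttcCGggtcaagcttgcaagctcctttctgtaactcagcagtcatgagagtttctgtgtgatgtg
Zfp57: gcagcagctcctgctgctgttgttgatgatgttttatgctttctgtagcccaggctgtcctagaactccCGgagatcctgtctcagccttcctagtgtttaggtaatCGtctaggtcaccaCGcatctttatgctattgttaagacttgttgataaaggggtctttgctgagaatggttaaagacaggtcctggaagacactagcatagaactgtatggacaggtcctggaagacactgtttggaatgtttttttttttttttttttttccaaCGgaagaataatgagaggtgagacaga
The Zfp982 and Zfp979 windows were 84.9% identical in a global alignment, with 269 identical bases, 14 mismatches and 34 gap positions, and each held 5 CpGs. The Zfp966 and Zfp967 windows were identical in all 300 bases, with 5 CpGs each. The Zfp57 window held 4 CpGs. It belongs to an internal start 2503 bp into the gene, and the other 2 windows of Zfp57 held 6 CpGs, at the gene start, and 9.

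At least 1 peak midpoint fell in the body or within 1 kb of an end of 153 Zfp genes (62.7%; 95% Wilson interval 56.5% to 68.5%), against 66.4% of all protein-coding genes. Intervals of this kind cover counting error only and treat genes as independent, which neighbouring copies are not. The other 91 Zfp genes had no peak. Of the members, 59 had 1 peak, 62 had 2 to 4, 18 had 5 to 9 and 14 had 10 or more. In all, 534 distinct peaks lay at Zfp genes, 3 of them at more than 1 Zfp gene. The bodies of Zfp genes held 5.48 peaks per 100 kb, against 5.69 over all protein-coding genes. Zfp genes with a peak were longer, with a median of 23.9 kb against 15.7 kb without.

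The fold enrichment of a peak, as given by the authors' peak caller, sets the reads piled up at a peak against an expected number, its background. The median fold at Zfp genes was 14.9 (quartiles 9.18 and 24.4). At all protein-coding genes it was 13.7 (quartiles 8.82 and 22.6), and over the whole list, which also holds peaks outside genes, 13.2. The lowest fold at a Zfp gene was 2.79 and the highest 79.7. Both belonged to Zfp978 on chromosome 4. The fold was at least 20 in 32.4% of the Zfp peaks and in 28.9% of all peaks.

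A smaller share of the clustered than of the single genes had a peak, but the difference changed with gene length. Among the clustered genes 67 of 121 had a peak (55.4%; Wilson interval 46.5% to 63.9%), and among the single genes 86 of 123 (69.9%; 61.3% to 77.3%), a difference of -14.5 percentage points, against 66.4% of all protein-coding genes. These intervals overlap. In the middle 50% of Zfp gene lengths, from 13.2 to 31.2 kb, the shares were 50.7% and 52.9%. Both shares there lay below those of protein-coding genes of 10 to 20 kb and of 20 to 40 kb. Over all lengths the bodies of clustered genes held 5.34 peaks per 100 kb and those of single genes 5.56. Without the chromosome 4 cluster the clustered value was 4.86. No test was made of this difference, since the list has no samples to test over.

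Set beside other genes of the same length, Zfp genes of intermediate length held fewer peaks. Between 10 and 20 kb, 47 of 97 Zfp genes had a peak (48.5%), against 68.3% of 2822 protein-coding genes. Their bodies held 6.33 peaks per 100 kb, against 10.7 for all genes of that length. Between 20 and 40 kb the share was 63.8% (51 of 80), against 76.3%. The short and the long members did not show this. Under 10 kb, 16 of 25 Zfp genes had a peak (64.0%), against 38.3% of all genes in that band, which includes the many short olfactory receptor genes. From 40 to 100 kb 22 of 24 had a peak (91.7%, against 87.3%), and over 100 kb 17 of 18 (94.4%, against 97.4%). In the 10 to 20 kb band the clustered genes were at 39.6% (21 of 53) and the single genes at 59.1% (26 of 44), while between 20 and 40 kb the order was the opposite, at 65.3% (32 of 49) and 61.3% (19 of 31). Peaks per 100 kb of body were lower in clustered than in single genes in each of the 4 bands up to 100 kb, for example 5.42 against 7.40 between 10 and 20 kb and 4.38 against 6.86 between 20 and 40 kb. Over 100 kb they were higher, at 5.36 against 3.62, but that band holds only 2 clustered genes, Zfp978 and Zfp993. The plot of shares by gene length shows these bands.

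**Figure D1:**
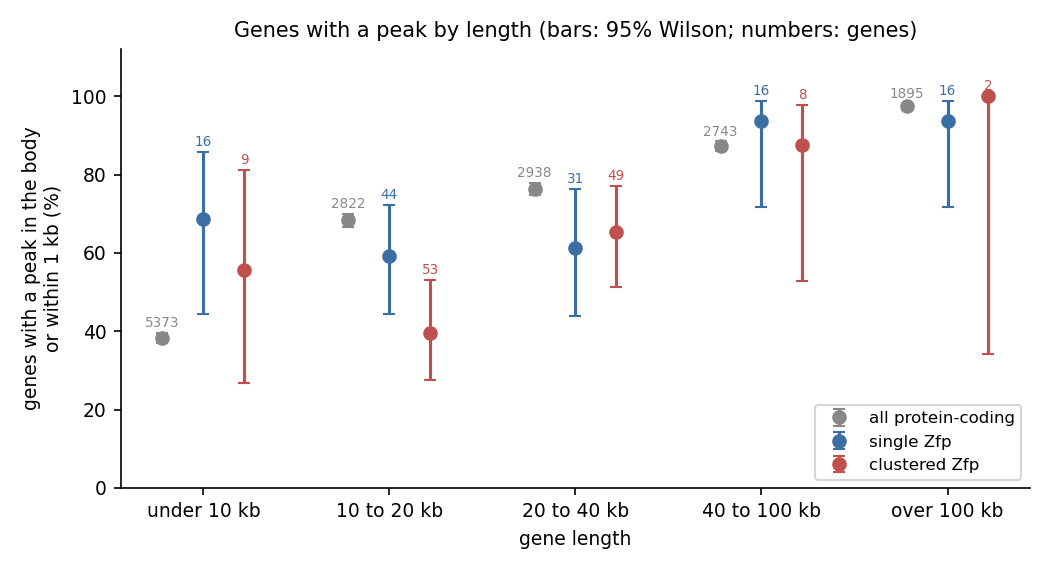
Percent of genes with a peak midpoint in the body or within 1 kb of an end (y axis) by gene length band (x axis), for all protein-coding, single Zfp and clustered Zfp genes; points are shares, bars are 95% Wilson intervals and the numbers count genes. Between 10 and 20 kb the clustered Zfp genes stand at 39.6% and all protein-coding genes at 68.3%.

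Long genes made up most of the members with many peaks. Of the 14 Zfp genes with 10 or more peaks, 11 were longer than 90 kb. Zfp407 (382 kb) had 16 peaks, Zfp516 (95.6 kb), an activator of the brown fat programme, had 15, and Zfp236 (99.3 kb) and Zfp532 (109 kb) had 14 each. All 4 lie on chromosome 18. Zfp462 (139 kb), Zfp618 (174 kb) and Zfp704 (183 kb) had 12 peaks each. Of these 7, all are single genes. The clustered Zfp993 on chromosome 4 had 14 peaks, but over 479 kb (2.93 per 100 kb), and 8 of them lay above the lowest background described further on.

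Zfp64, with the second highest number of peaks, is shorter than the other 9 genes with most peaks. It spans 62.3 kb at chr2:168893331-168955587 on the minus strand and had 18 peaks, which is 27.3 per 100 kb of body. Shorter members reached higher densities, such as Zfp335 with 10 peaks in 20.7 kb (48.3 per 100 kb) and Zfp12 with 7 in 13.7 kb (51.1 per 100 kb), both named after their values were seen. The folds at Zfp64 ran from 6.65 to 29.1, and its peaks were spread from 786 bp before the start to 859 bp before the far end. By contrast Zfp148, at 123 kb the longest member without a peak, had none over its whole body (chr16:33380775-33503903). The shortest member with a peak was Zfp593 at 2.29 kb, with 1 peak of fold 15.3. Across the 244 members the number of peaks rose with gene length (Pearson r = 0.60, Spearman rho = 0.38, a description over genes that share 1 list).

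The 3 clusters with most members differed widely. The largest, 23 genes from Zfp712 to Zfp273 over 788 kb of chromosome 13 (chr13:67038594-67827000), held 28 peaks, or 35.5 per Mb, against 43.0 per Mb over all covered sequence. Only 9 of its 23 genes had a peak (39.1%), against 66.4% of all protein-coding genes. Its median gene length was 16.1 kb, and of all protein-coding genes of 10 to 20 kb 68.3% had a peak. Zfp458 had 3, of folds 38.0, 30.9 and 21.7. Zfp953, Zfp87 and Zfp729a had 2 each, and Zfp708, Zfp457, Zfp459, Zfp65 and Zfp85 had 1 each. No peak fell at Zfp712, Zfp759, Zfp455, Zfp595, Zfp456, Zfp429, Zfp874a, Zfp874b, Zfp58, Zfp748, Zfp729b, Zfp738, Zfp493 or Zfp273.

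The second cluster, 13 genes from Zfp677 to Zfp943 over 611 kb of chromosome 17 (chr17:21383707-21994366), was sparser still, at 24.6 peaks per Mb. A peak was found at 5 of the 13 genes (38.5%), against 66.4% of all protein-coding genes. The median gene length was 23.5 kb, and of all protein-coding genes of 20 to 40 kb 76.3% had a peak. Zfp53 had 1 of fold 30.3, Zfp52 had 1 of fold 4.41, Zfp229 had 1 of fold 8.45 and Zfp820 had 1 of fold 12.3. Zfp943 had 2, of folds 16.3 and 27.1. Zfp677, Zfp54, Zfp51, Zfp948, Zfp983, Zfp760, Zfp995 and Zfp942 had none.

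The third, 9 genes from Zfp978 to Zfp933 over 724 kb of chromosome 4 (chr4:147124882-147849126), was dense, with 67 peaks or 92.5 per Mb. A peak was found at 6 of its 9 genes (66.7%), close to the 66.4% of all protein-coding genes. Its median gene length was 31.9 kb, and of all protein-coding genes of 20 to 40 kb 76.3% had a peak. The 45 gene peaks of this cluster made up 23.6% of all peaks at clustered Zfp genes. Zfp978, whose gene model of 267 kb overlaps Zfp991 and Zfp988, had 27 peaks, the most of any member, Zfp982 had 10 and Zfp933 had 7. Zfp991, Zfp988 and Zfp979 had 1 each, and Zfp985, Zfp534 and Zfp984 had none. A smaller group on chromosome 6, from Zfp786 to Zfp746, was named after its values were seen. It had a peak at all 7 of its genes, with a median fold of 15.5, against 66.4% of all protein-coding genes. Other groups varied, with a peak at 4 of 8 genes from Zfp871 to Zfp563, 0 of 3 from Zfp119a to Zfp119b and all 3 from Zfp251 to Zfp647. The plot of peaks per gene shows the 3 large clusters.

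**Figure D2:**
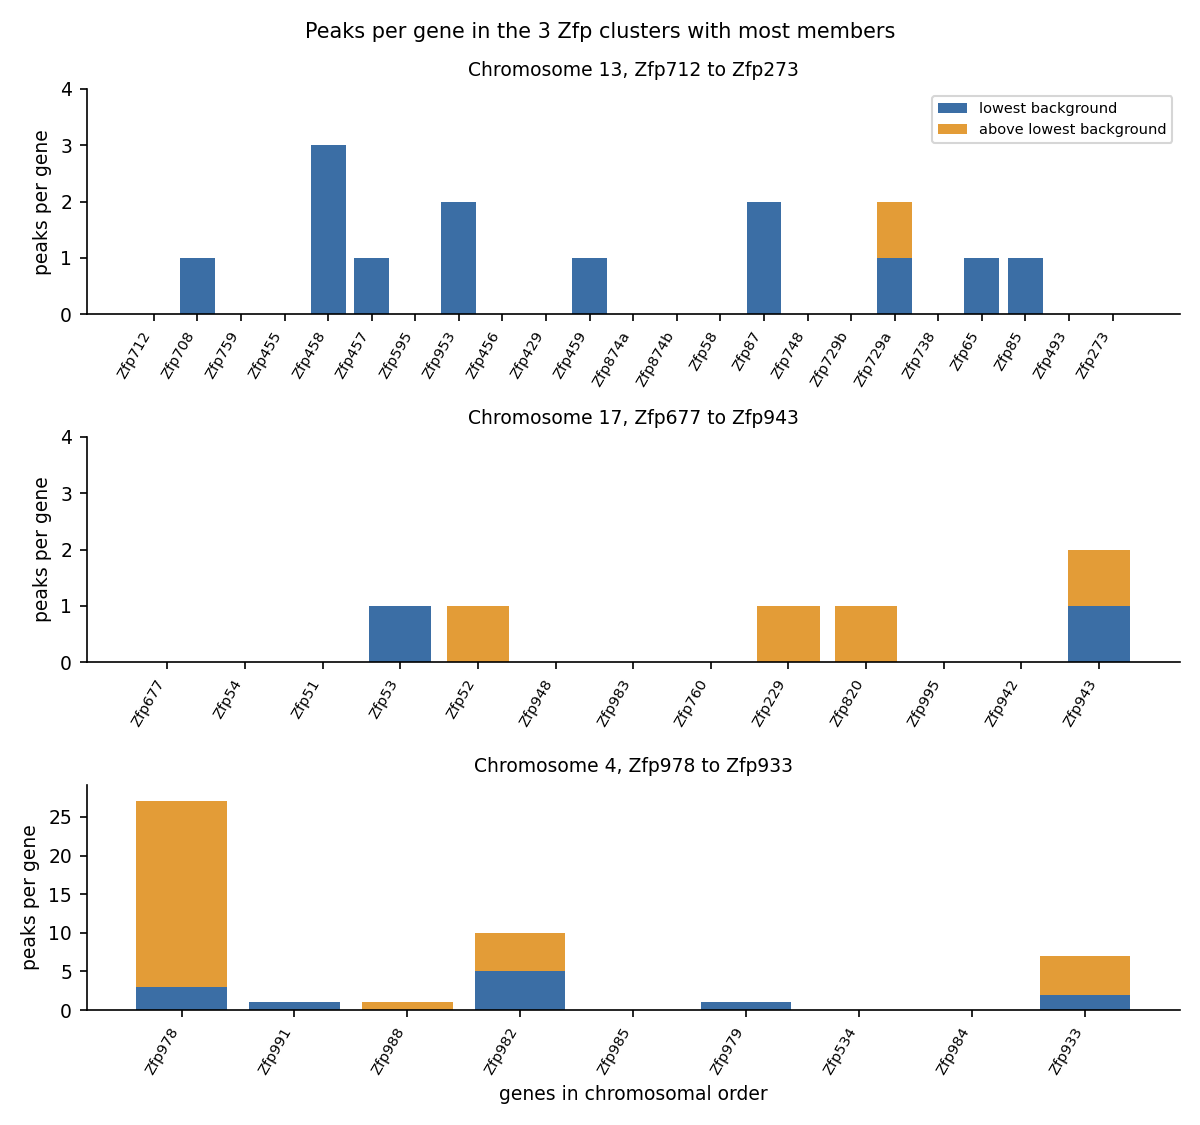
Peaks per gene (y axis) for the members of the 3 Zfp clusters with most genes, in chromosomal order (x axis), with peaks at the lowest recovered background in blue and peaks above it in orange. On chromosome 13 no gene has more than 3 peaks, while on chromosome 4 Zfp978 has 27, of which 24 are above the lowest background.

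From fold and p the number of piled-up reads and the background of each peak were solved. The lowest background was 6.37 scaled reads, and 24.995% of all matched peaks in the list lay above it. At single Zfp genes the share above it was 19.2% (66 of 343 peaks), and at clustered Zfp genes 48.2% (92 of 191). In the chromosome 4 cluster it was 75.6% (34 of 45) and without that cluster the clustered genes were at 39.7% (58 of 146). Those 146 peaks still include another chromosome 4 group, from Zfp992 to Zfp993, at 62.5% (15 of 24). In the chromosome 13 cluster the share was 7.14% (1 of 14), and in the chromosome 17 cluster from Zfp677 to Zfp943 it was 66.7% (4 of 6). Over all protein-coding genes the share was 14.8%. Counting only peaks above the lowest background, a choice made after seeing the data, 31.4% of clustered and 29.3% of single genes had a peak, which turns the direction of the difference between them. The 27 peaks of Zfp978 included 1 with 669 piled-up reads against 7.41 expected (fold 79.7) and 1 with 976 against 349 (fold 2.79). The peak with the highest fold at a single gene, 55.9 at Zfp516, had a pileup of 411 reads at the lowest background.

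**Figure D3:**
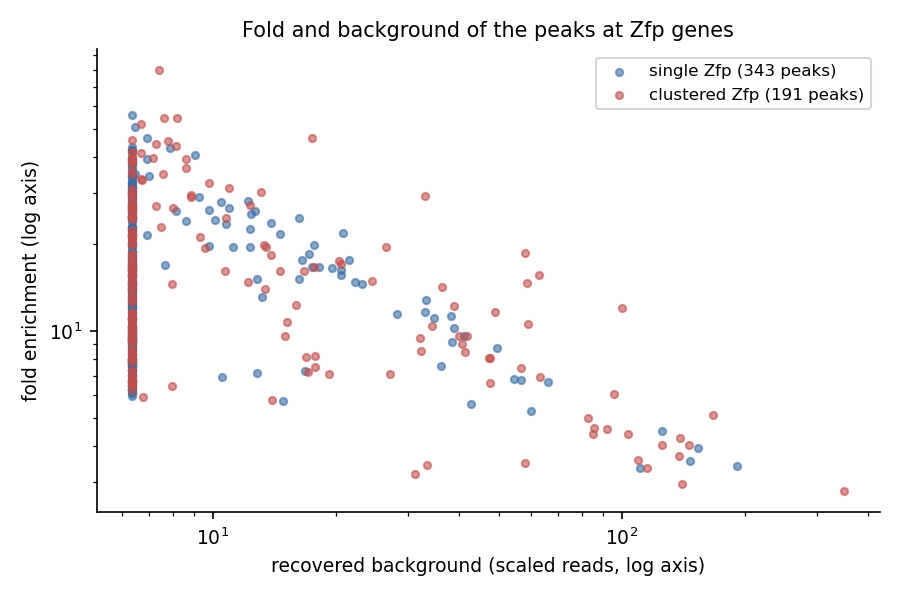
Fold enrichment (y axis, log) against recovered background in scaled reads (x axis, log) for the 534 peaks at Zfp genes, single genes in blue and clustered genes in red. The column at 6.37 holds the peaks at the lowest background. The peak with the highest background, 349, belongs to the clustered Zfp978.

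Zfp genes whose promoter windows had copies among the windows searched had a peak less often than those without. Each promoter window was cut into all stretches of 31 bases. A stretch counted as shared when it occurred, on either strand, in a window of another protein-coding gene that did not overlap it. Only the windows of the 12547 protein-coding genes on covered sequence with known strand were searched. A window with none shared may thus have a copy elsewhere in the genome. At least 1 stretch was shared by 24.7% of the 243 Zfp windows (60), against 8.90% of the 15401 windows of all protein-coding genes. The share was 42.1% for clustered and 9.30% for single Zfp genes. Of the 29 Zfp genes with at least 50% of a window shared, 10 had a peak (34.5%; Wilson interval 19.9% to 52.7%), and of the 141 with none shared, 97 (68.8%; 60.7% to 75.9%), against 66.4% of all protein-coding genes. Their median lengths were 17.7 and 19.6 kb. Of the 29 genes with at least 50% shared, 8 lie in the chromosome 2 run given below, and none of these had a peak. Of the 29 genes with some but under 50% shared, 9 had a peak (31.03%). Whether the share depends on the amount of copying was not tested.

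Among genes without promoter copies in the windows searched, 36 of 54 clustered genes (66.7%) and 61 of 87 single genes (70.1%) had a peak. Among the few with copies the order was the opposite. With at least 50% shared, 8 of 20 clustered (40%) and 2 of 9 single genes (22.2%) had a peak. With less shared, 9 of 27 clustered (33.3%) and 0 of 2 single genes had one. Of the 9 single genes, Zfp966, Zfp967, Zfp973 and Zfp970 lie in the chromosome 2 run given below, and none of them had a peak. A lower share in genes with copies was also found outside the Zfp genes. Among other protein-coding genes of at least 10 kb, 40.7% of 177 genes with at least 50% of a window shared had a peak, against 82.9% of 7600 with none shared. The former were shorter, with a median of 21.98 kb against 35.5 kb. How reads that match several copies were placed is not given in the sources used here, and their part in these shares was not tested. Values at genes with near-identical copies, such as those on chromosomes 2, 4 and 17, are uncertain for that reason.

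A run of 9 Zfp genes from Zfp968 to Zfp931 on chromosome 2 (chr2:175372034-178078425) was chosen after its values were seen and supports nothing beyond itself. Zfp968, Zfp965, Zfp966, Zfp967, Zfp973, Zfp970, Zfp971 and Zfp931 each shared at least 50% of a promoter window, and none of these 8 had a peak. They are among the 29 such genes counted above. The window of Zfp972 shared 0.741%, and Zfp972 had 1 peak, of fold 6.78. All 9 are between 10.5 and 22.6 kb long, and 71 peaks lay in the whole interval, or 26.2 per Mb. Elsewhere, genes with at least 50% of a window shared did have peaks, among them Zfp442 with 4, Zfp600 with 3 and Zfp345 and Zfp937 with 1 each.

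Peaks were next placed between the start and the far end of the 199 genes of known strand. Strand and promoter windows were missing for all 11 Zfp genes on chromosome 18, which held 73 of the 537 pairs of gene and peak. They were also missing for Zfp978, Zfp462 and Zfp704, among others. Several of the genes with most peaks thus do not enter the values by position or by promoter window. Peaks at the start were rare. A peak midpoint lay within 1 kb of the start of 9 genes (4.52%; Wilson interval 2.40% to 8.37%), against 6.72% of protein-coding genes of known strand. The interval includes that value. Of the 9, 4 were among the 101 clustered and 5 among the 98 single genes. A peak overlapped 2 of the 243 promoter windows (0.823%), against 2.96% of all windows. The median number of CpGs in a window was 12 for Zfp genes and 14 for all protein-coding genes; it was 9 for clustered and 17 for single Zfp genes.

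The strongest of the start peaks was at Zfp652, with a fold of 26.9 at chr11:95749588-95750073, 763 bp inside the gene. It was followed by Zfp2 (fold 21.3, 683 bp before the start), Zfp518a (20.2, 8 bp inside), Zfp953 (16.7, 686 bp before), Zfp64 (11.9, 786 bp before) and Zfp979 (10.6, 22 bp inside). The remaining 3 were at Zfp169 (9.50), Zfp229 (8.45) and Zfp996 (6.94). The peak at Zfp979 (chr4:147642362-147642610) had a pileup of 77 reads and overlapped 152 of the 300 bases printed above. The one at Zfp982 (chr4:147492301-147492527, fold 9.50, 69 reads) overlapped 166 bases of its window, which belongs to an internal start 49303 bp into the gene. The window at the first start of Zfp982 held 16 CpGs and was not overlapped. Both had the lowest background. In Zfp518a the RefSeq window lies at a start 674 bp into the gene, and the peak did not reach it.

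At the far end a peak was found in 30 of 199 genes (15.1%; Wilson interval 10.8% to 20.7%), against 16.9% of protein-coding genes of known strand. The clustered genes were at 11.9% (12 of 101) and the single genes at 18.4% (18 of 98). The highest fold was 46.4 at Zfp219 (chr14:52006400-52007549, 899 bp before the far end). Next came Zfp652 (43.4, at chr11:95763401-95764403), Zfp341 (40.8), an activator of STAT3 transcription, Zfp142 (36.4), Zfp933 (34.9) and Zfp385a (27.3). Zfp219 is 1 of 32 members that overlap another protein-coding gene, so a peak there may count for both. The far-end peak of Zfp933 lay 929 bp beyond the gene and the other 5 of these lay inside. In clustered genes of at least 10 kb, 9 peaks lay in the kilobase beyond the far end and 3 in the last kilobase inside. In single genes of that length these counts were 2 and 10. Per 100 genes these were 9.47 and 3.16 peaks in clustered and 2.35 and 11.8 in single genes. All 8231 protein-coding genes of that length and known strand held 5.44 and 12.8. Zfp652 and Zfp64 had a peak at both ends.

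The last kilobases of Zfp genes held fewer peaks than those of other genes. In genes of at least 10 kb, the last 5 kb held 38.3 peaks per 100 genes in 180 Zfp genes and 65.9 in 8231 protein-coding genes. Clustered Zfp genes were at 24.2 (23 peaks in 95 genes) and single ones at 54.1 (46 peaks in 85 genes). In the first 5 kb the values were closer, at 16.1 for Zfp and 21.7 for all protein-coding genes. Among the 35 Zbtb genes, another zinc finger family whose members carry a BTB domain, 22 were of that length and known strand. Their last 5 kb held 95.5 peaks per 100 genes, a value that rests on only 21 peaks in 22 genes.

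Along the body, the Zfp peaks rose in number towards the far end as in genes at large. In 5 equal parts of the gene from start to far end, 13.4%, 17.4%, 19.8%, 23.2% and 26.2% of 328 peaks fell in Zfp genes, against 12.6%, 16.3%, 19.2%, 22.5% and 29.5% of 35568 over all protein-coding genes. In single Zfp genes the last of these parts held 29.3% (60 of 205 peaks). In clustered Zfp genes it held 21.1% (26 of 123), after 14.6%, 21.1%, 20.3% and 22.8% in the parts before it. Its Wilson interval in clustered genes, 14.9% to 29.2%, overlaps that in single genes, 23.5% to 35.8%. These shares describe where the peaks of a group lie and not how many there are; the plot of peaks near both ends shows their number per gene by distance.

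**Figure D4:**
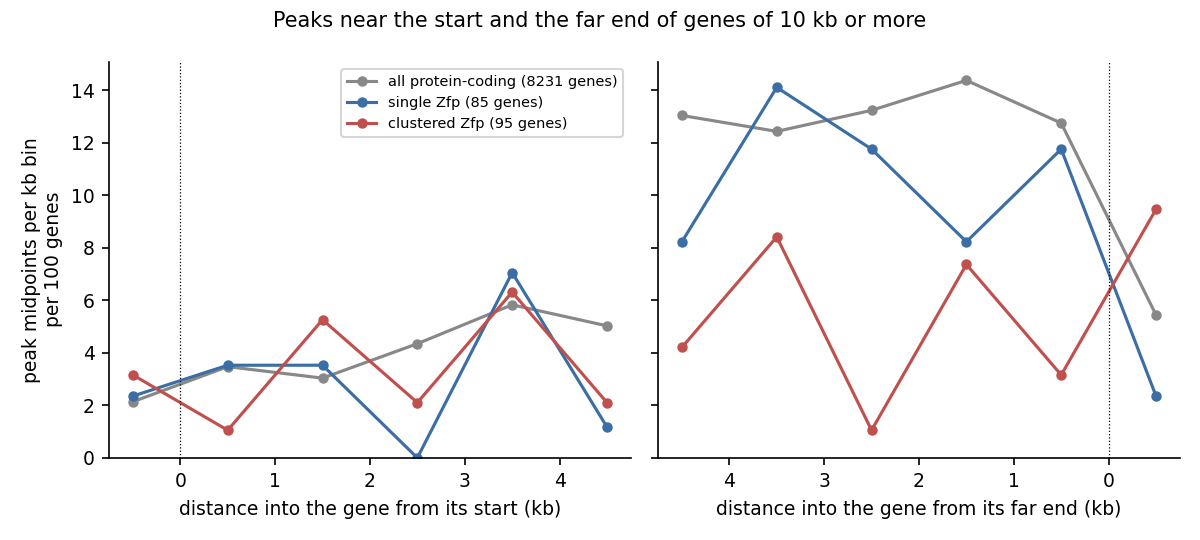
Peak midpoints per 100 genes in bins of 1 kb (y axis) by distance into the gene in kb (x axis; negative values lie outside it) from the start (left panel) and from the far end (right panel), for genes of at least 10 kb with known strand. In the last 5 kb inside the gene, all protein-coding genes hold 65.9 peaks per 100 genes, single Zfp genes 54.1 and clustered Zfp genes 24.2.

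Among Zfp genes with roles in skeletal and mesenchymal cells, 4 of the 5 on covered sequence had a peak, against 66.4% of all protein-coding genes. Zfp219, a partner of Sox9 in activating cartilage genes, had 3 peaks over its last 3.40 kb, of folds 46.4, 16.7 and 26.2, and none in the rest of its 15.1 kb. Zfp521, a repressor of Runx2 in bone and growth plate cells, had 3 peaks in 286 kb, of folds 5.97, 18.5 and 39.2. Zfp467, which acts in the choice between bone and fat cells, had 1 of fold 11.6 over a background of 33.0 reads. Zfp36l1, which destabilises mRNAs with AU-rich elements, had 1 of fold 10.99, and its relative Zfp36l2 had none. Zfp423 and Zfp36 were not analysed here.

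Of the listed KRAB genes that silence imprinted regions and retroelements, 4 of 5 on covered sequence had a peak, against 66.4% of all protein-coding genes. Zfp57 had 1 peak, at chr17:37009538-37010140, with a fold of 22.5 from a pileup of 165 reads at the lowest background. It lay 890 bp before the far end, while none of the 3 promoter windows of the gene was overlapped. Zfp600 had 3 peaks of folds 21.2, 9.63 and 29.6, and Zfp992 had 4, the highest of fold 20.9. Zfp708, a repressor of retroelements, had 1 of fold 7.33, and Zfp932 had none. Among the listed germline and pluripotency genes 2 of 5 had a peak, against 66.4% of all protein-coding genes, or 38.3% of those under 10 kb, the length of Zfp281 and Zfp352. Zfp462, with 12 peaks of folds up to 38.4, and Zfp318, with 2 of folds 10.99 and 9.77, stood beside Zfp281, Zfp37 and Zfp352 with none. Zfp281 is a pluripotency factor with a short gene of 5.49 kb.

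Of 13 genes on covered sequence that act with KRAB zinc finger proteins or on DNA methylation, 12 had at least 1 peak (92.3%). The median was 3 peaks a gene. The share was 66.4% of all protein-coding genes, but 76.3% of those of 20 to 40 kb and 87.3% of those of 40 to 100 kb. The 13 genes ran from 6.19 kb (Daxx) to 113 kb (Dnmt3a), and no comparison matched for length was made. The histone methyltransferase gene Setdb1 had 2 peaks, of which the higher had a fold of 17.8, and the heterochromatin protein genes Cbx1 and Cbx5 had 1 each (folds 16.7 and 6.10). The DNA methyltransferase genes Dnmt3a and Dnmt3b had 10 and 6. Uhrf1, which guides Dnmt1 to newly copied DNA, and Morc3 had 5 each, and the histone chaperone gene Daxx had 3, with a fold of 49.4 for a peak within 1 kb of its far end. Cbx3 alone had none. Trim28, Atf7ip, Atrx, Dnmt1 and Chd4 were not analysed here.

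Beside other gene families, the share of Zfp genes with a peak (62.7%) lay between that of Zbtb genes (31 of 35, 88.6%; Wilson interval 74.0% to 95.5%) and that of Olfr genes, the clustered olfactory receptor genes (53 of 724, 7.32%). Zscan and Zkscan genes, zinc finger genes with a SCAN domain, were at 70.6% (12 of 17). The Olfr genes have a median length of 0.948 kb, against 20.05 kb for Zfp and 18.3 kb for Zbtb genes, so their share is not comparable by length.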

How the data were processed

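The labels' protocols describe capture with MBD2 from DNA sonicated to about 300 bp, and the submitters' processing notes name fastp, Bowtie2, MACS2, mm10 and GRCm38 without versions or roles. Per the deposited peak names, 3 datasets were merged with Samtools. In the deposited list each peak has a fold enrichment, a ratio to the caller's background, and its significance as −log10 p and as −log10 q (lowest 20.004). A deposited score repeats the −log10 q times 10 without decimals, and 3 columns give positions. The list analysed ends within chromosome 6, where 1 incomplete line was left out; the rest of it and chromosomes 7 to 9, X and Y were not used.

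Genes, starts and strands came from RefSeq tables of GRCm38.p6; genes in the first 3 Mb of a chromosome were left out. Pileup and background were solved from fold = (pileup + 1)/(background + 1) and a Poisson p (99.97% of peaks matched within 1% of the spacing between whole pileups). This recovered 100% of 4997 simulated pileups made with the same formula, which checks the solving step and not the formula itself. The placement counts were also tested on simulated data. Python 3.11.15, pandas 2.3.3 and scipy 1.17.1 were used. Named genes were the 10 with most peaks, the 6 with the highest fold at each end, the members of the 3 largest clusters, the list genes, the longest gene without and the shortest with a peak. The Zfp genes, lists and families were chosen with earlier results of these data known. The planned count test was not made, since the list holds no counts per sample. Alternatives changed the window, peak placement, filters, merging and cluster distance.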

Additional observations from a re-analysis of the deposited data

How the results depend on the processing

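No paired analysis was possible because a single pooled list without values per culture was analysed, and for the same reason no replicate was left out. Predicted genes with finger arrays were not added as cluster partners, since protein sequences were not used here.

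The share of clustered genes with a peak lay below that of single genes in every alternative except 1 chosen after seeing the data: with only peaks above the lowest background the difference turned to 2.14 points (31.4% clustered, 29.3% single). In the middle 50% of lengths it was -2.24 points. There the shares were 51.6% of all and 52.9% of single genes, with 142 peaks of median fold 16.3. Elsewhere it ran from -22.1 points (peaks at the lowest background, added) to -11.5 points.

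Stricter filters keep fewer peaks and so lower the shares. With the median fold of the list as a minimum, 302 peaks (median fold 22.3) hit 47.1% of all, 38.8% of clustered and 55.3% of single genes, 2.01% of starts and 9.05% of far ends. A −log10 q of at least 100 kept 307 peaks (21.8) and gave 48.8%, 43.0%, 54.5% and, at far ends, 10.05%; one of 50 gave 55.7% and a median fold of 17.8. Peaks at the lowest background hit 54.9% of all and 43.8% of clustered genes. Those above it numbered 158 and gave 30.3% of all genes, 1.005% of starts, 4.02% of far ends and 21.0% of body peaks in the last of 5 equal parts. A 500 bp window gave 2.01% of starts and 6.53% of far ends, and a 2 kb window 10.6% and 22.6%. Cluster distances of 50 and 200 kb, other placements, merging and leaving out the chromosome 4 cluster kept all shares within their intervals.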

Other observations

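The non-coding genes named Zfp on covered sequence, which the report does not use, were placed the same way. Of 15, 9 had at least 1 peak. All 5 lncRNA genes (median length 11.4 kb) had 1 each, against 40.7% of 9903 lncRNA genes on covered sequence (median 8.52 kb): Zfp335os, Zfp783, Zfp286os, Zfp652os and Zfp85os. A peak at such a gene can also count for a protein-coding gene that it overlaps. Among 10 pseudogenes (median 6.41 kb) 4 had a peak, against 34.2% of 7330 pseudogenes (median 0.905 kb): Zfp862-ps had 4, and Zfp572, Zfp42-ps1 and Zfp422-ps had 1 each. Zfp813-ps, with 22905 bp the second longest of the pseudogenes, had none.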
